A study of Mus musculus with 14 samples.

Results

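The nuclear-encoded subunits of the mitochondrial respiratory chain were followed in muscle stem cells (MuSCs) that were sorted as Lin28a+ and in control MuSCs. This set was chosen with earlier results of these data known, and the study had reported a difference in oxidative phosphorylation between these cells. Its members were defined by gene symbol, without pseudogenes and assembly factors. They were Nduf genes of the a, b, c, s and v series, Sdha to Sdhd, Uqcr genes, Cox4 to Cox8 genes and Atp5 genes. They numbered 81 of the 14837 genes in the input RNA table, with 38 in complex I, 4 in complex II, 8 in complex III, 15 in complex IV and 16 in complex V. Atp5s, which RefSeq now names Dmac2l, was left out as an assembly-type gene. Complexes were assigned by symbol, so Ndufa4, which is known as a complex IV subunit, was counted with complex I, and Cox7a2l, known for its part in respiratory supercomplexes, with complex IV. Ndufb4c (ENSMUSG00000083380) is a near-copy of Ndufb4, and reads may have been shared between them.

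Lin28a+ MuSCs came from skeletal muscle of Lin28a-CreERT2; LSL-tdTomato mice and were isolated by flow cytometry. In these mice a red reporter marks cells in which the inducible Cre expressed from Lin28a has acted. Control MuSCs are labelled only as control, and both kinds of cells were grown on Matrigel in serum-containing medium without a treatment. Strain and age are not given in the sources used here. RNA was sequenced as input and after immunoprecipitation (RIP) of m6A, the most abundant internal mRNA methylation, or of Igf2bp3, an m6A reader that binds mRNA, with 2 libraries per group and assay. RIP of Lin28a, itself an RNA-binding protein, had 2 libraries from Lin28a+ MuSCs and none from control MuSCs. Lin28a itself was not analysed here.

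The respiratory chain sits in the inner mitochondrial membrane. Complexes I and II pass electrons from NADH and succinate to ubiquinone, complex III passes them on to cytochrome c, complex IV reduces oxygen, and complex V uses the resulting proton gradient to make ATP. Most subunits are encoded in the nucleus and imported, whereas a small set of core subunits of complexes I, III, IV and V is encoded in mitochondrial DNA. Several complex IV subunits exist as paired isoforms, 1 of which is used mainly in heart and skeletal muscle.

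Input counts summed to between 4842915 and 6220960 per library, m6A-RIP counts to between 21350962 and 31830638, Igf2bp3-RIP counts to between 9215355 and 34142094, and Lin28a-RIP counts to 33908110 and 36610494. The MuSC markers Pax7 (143 and 154 CPM, counts scaled to library size, in control libraries and 193 and 188 in Lin28a+ libraries), Myod1 and Cdh15 were present in all 4 input libraries. Of 11 measured muscle stem cell markers, 3 were higher and 6 were lower in Lin28a+ MuSCs. Of 22 markers of myogenic differentiation 6 were higher and 15 were lower. Of all genes tested 28.1% were higher and 28.7% lower. Markers of fibro-adipogenic progenitors summed to 148 and 154 CPM in control MuSCs and 77.0 and 76.9 CPM in Lin28a+ libraries. That sum was mostly Gsn, which fell, while Ly6a rose from 21 and 28 to 69 and 61 counts, and the defining markers Pdgfra, Cd34 and Pi16 were at 0 to 2 counts in each library. Markers of endothelial cells and of macrophages summed to at most 1.84 and 5.72 CPM, and markers of pericytes and smooth muscle to 5594 and 5549 CPM in control MuSCs and 7639 and 7623 CPM in Lin28a+ libraries, almost all of it Acta2. Pdgfrb and Notch3 were also higher, and Rgs5, a pericyte marker, was lower at 13 and 13 counts in control and 1 and 1 in Lin28a+ libraries. The part of these markers in the results was not tested.

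The stretches upstream of the start of the subunit with the highest RNA fold change in each complex, and of Cox7a1 and Cox8b, the muscle-type isoforms that fell, are shown because these genes carry the RNA result. Each is the 150 bases before the start in RefSeq (GRCm38.p6), 5′ to 3′ on the strand of the gene, with Ndufs8 at chr19:3912775-3912924 (minus), Sdhb at chr4:140961121-140961270 (plus), Uqcrc1 at chr9:108936498-108936647 (plus), Cox7a2 at chr9:79759854-79760003 (minus), Atp5g3 at chr2:73911327-73911476 (minus), Cox7a1 at chr7:30184021-30184170 (plus) and Cox8b at chr7:140900447-140900596 (minus). The start is the 1 given in the RefSeq promoter table, and for Cox7a2 and Atp5g3 (gene span chr2:73908447-73912464) it lies inside the RefSeq gene span, so these stretches follow a start within the gene and not its outer end. Capitals mark matches on either strand to the Sp1 motif GGGCGG, the ERR motif TCAAGGTCA or the E-box CAGCTG.
Ndufs8: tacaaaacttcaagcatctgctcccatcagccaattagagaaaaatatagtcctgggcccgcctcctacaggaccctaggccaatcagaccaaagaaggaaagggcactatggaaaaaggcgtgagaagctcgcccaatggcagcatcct
Sdhb: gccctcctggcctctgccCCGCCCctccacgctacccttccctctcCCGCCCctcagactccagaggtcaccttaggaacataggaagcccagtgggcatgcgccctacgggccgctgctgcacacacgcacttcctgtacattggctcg
Uqcrc1: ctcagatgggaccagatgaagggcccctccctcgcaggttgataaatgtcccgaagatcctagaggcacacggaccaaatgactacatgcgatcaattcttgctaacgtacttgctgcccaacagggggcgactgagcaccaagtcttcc
Cox7a2: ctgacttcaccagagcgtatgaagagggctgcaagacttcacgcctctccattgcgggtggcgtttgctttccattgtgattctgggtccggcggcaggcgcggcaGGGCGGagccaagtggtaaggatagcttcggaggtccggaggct
Atp5g3: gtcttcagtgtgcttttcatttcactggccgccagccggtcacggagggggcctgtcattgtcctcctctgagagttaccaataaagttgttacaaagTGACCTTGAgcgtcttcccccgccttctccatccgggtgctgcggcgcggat
Cox7a1: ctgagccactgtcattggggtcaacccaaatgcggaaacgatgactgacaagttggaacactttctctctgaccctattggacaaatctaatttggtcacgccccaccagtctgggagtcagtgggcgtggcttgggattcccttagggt
Cox8b: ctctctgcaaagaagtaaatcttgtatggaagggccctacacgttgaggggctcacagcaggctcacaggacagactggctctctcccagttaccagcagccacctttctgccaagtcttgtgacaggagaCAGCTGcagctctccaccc

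A set of 6 motifs was searched on both strands in the windows from 250 bases before to 50 bases after the start, which RefSeq gave for 66 of the 81 members. The NRF1 motif was found in 17 members (25.8%), against 12.6% of 8594 expressed genes and 5.19% of all 27025 genes with a window. The ETS motif CCGGAAG was found in 16 members (24.2%), against 21.7% of expressed genes, and the YY1 motif ATGGCGGC in 6 (9.09%), against 6.25%. GGGCGG was found in 26 members (39.4%), against 71.5% of expressed genes, and CAGCTG in 6 (9.09%), against 17.6%. TCAAGGTCA was found in 2 members, against 0.303% of expressed genes, and 1 of them was Atp5g3, 52 bases before that internal start. Cox7a1 held none of the 6 motifs, and Cox8b held CAGCTG at 19 bases before and 16 bases after the start. Uqcrc1 and Atp5g3 held the NRF1 motif and Ndufs8 and Sdhb the ETS motif only after the start, outside the stretches shown. These matches are letters in a window and were not tested as binding sites.

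RNA of the respiratory chain subunits was higher in Lin28a+ MuSCs in all 5 complexes. Of the 79 members with enough counts to be tested, 69 rose, 3 fell and 7 did not pass the threshold (edgeR's quasi-likelihood test, adjusted p under 0.05). Of all 11317 genes tested, 28.1% rose and 28.7% fell, 56.8% in either direction. The median change was 1.33-fold (log2 0.41), against a log2 median of 0.01 over all genes, and the members ranged from 0.539-fold to 1.79-fold. The groups did not overlap, with Lin28a+ higher, in 71 members (background 43%), and with Lin28a+ lower in 4 members (background 41.8%). Members together took 1.66% of the input counts in both control libraries and 2.26% and 2.22% in the Lin28a+ libraries. In such bulk samples, a change in the share of cells that express a gene and a change in RNA per cell cannot be told apart. DESeq2 called 56 members higher, at a median log2 change of 0.40 against 0.002 over all genes. The share of all genes that DESeq2 called higher is not given here.

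**Figure D1:**
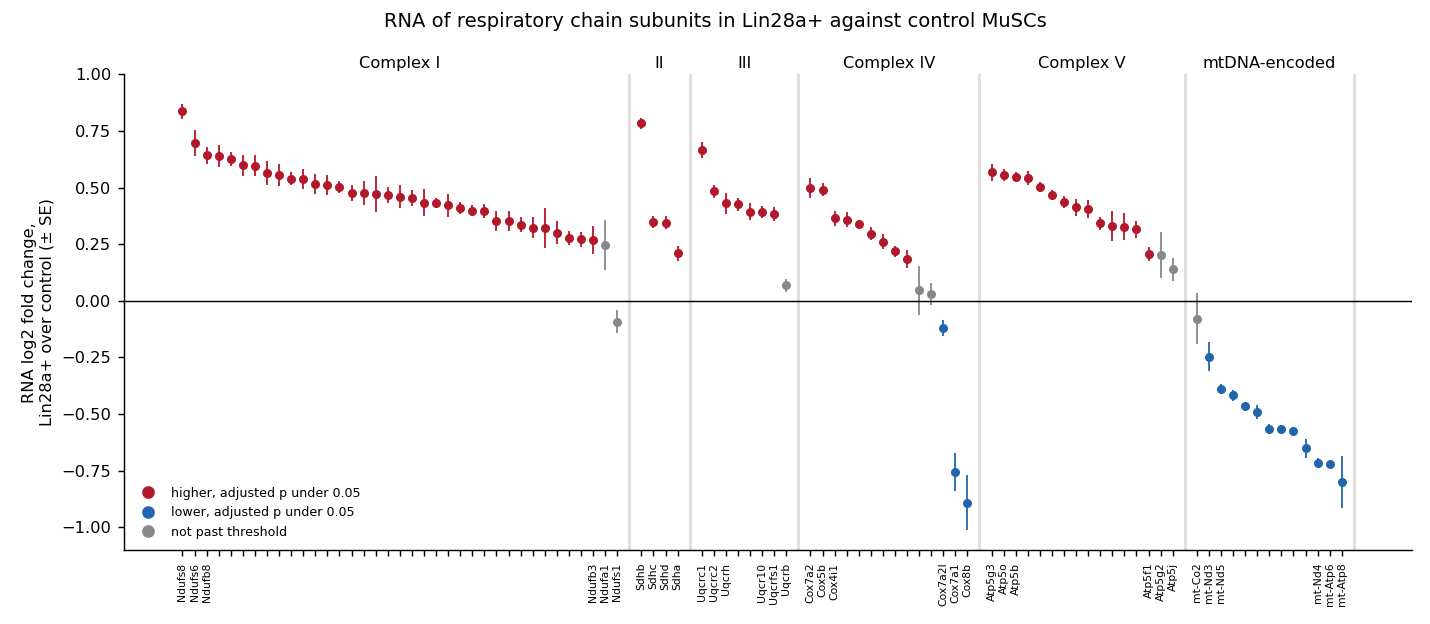
RNA log2 fold change of each tested subunit (y axis, Lin28a+ over control, points with SE, 2 libraries per group), grouped by complex and sorted within it, with the 13 mRNAs encoded in mitochondrial DNA at the right and the 3 highest and 3 lowest of each set named. Members lie above 0 in all complexes except Ndufs1 in complex I and Cox7a2l, Cox7a1 and Cox8b in complex IV, whereas the mitochondrially encoded mRNAs lie below 0.

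In complex I, the NADH dehydrogenase, 35 of 37 tested members rose, with a median of 1.38-fold. Ndufs8 (ENSMUSG00000059734), a subunit that carries iron-sulphur clusters, was at 82.2 and 79.6 CPM in control MuSCs and 143 and 146 CPM in Lin28a+ libraries. It rose 1.79-fold (log2 0.84, SE 0.03, adjusted p = 2.3e-05 by edgeR), the highest change among all members. Ndufs6 rose from 55.1 and 50.2 to 87.7 and 82.4 CPM and Ndufb8, an accessory subunit, from 69.7 and 67.4 to 108 and 105 CPM. Both groups were apart for each of these genes. Ndufs1, the largest core subunit, was the exception, with 43.5 and 43.9 CPM in control MuSCs and 39.7 and 42.3 CPM in Lin28a+ libraries (log2 -0.09, SE 0.05, adjusted p = 0.418 by edgeR). Ndufa1 overlapped between groups, with 156 and 141 CPM in control MuSCs and 195 and 156 CPM in Lin28a+ libraries. Ndufa4 rose 1.39-fold, whereas its paralogue Ndufa4l2 had 1 to 3 counts per library and was not tested.

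All 4 subunits of complex II, the succinate dehydrogenase, rose, but to unequal extents. Sdhb (ENSMUSG00000009863), the iron-sulphur subunit, was at 240 and 237 CPM in control MuSCs and at 412 and 409 CPM in Lin28a+ libraries, a 1.72-fold increase (log2 0.78, SE 0.02, adjusted p = 1.12e-05 by edgeR). Sdhc and Sdhd, which anchor the complex in the membrane, rose 1.27-fold each. Sdha, the flavoprotein that oxidises succinate, rose 1.16-fold, from 115 and 113 to 133 and 130 CPM, a call that was lost with DESeq2.

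In complex III, 7 of 8 members rose. Uqcrc1 (ENSMUSG00000025651), a core subunit, rose 1.59-fold from 80.0 and 81.4 to 130 and 126 CPM (log2 0.67, SE 0.03, adjusted p = 5.29e-05 by edgeR). Uqcrc2 and Uqcrh rose 1.40-fold and 1.35-fold, and Uqcrfs1, the Rieske iron-sulphur protein, 1.31-fold. Uqcrb, a small subunit near the ubiquinone site, was at 191 and 186 CPM in control MuSCs and 200 and 195 CPM in Lin28a+ libraries, which did not pass the threshold (adjusted p = 0.183 by edgeR).

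Complex V, the ATP synthase, had 14 of 16 members higher, with a median of 1.33-fold. Atp5b (ENSMUSG00000025393), the catalytic beta subunit, rose from 972 and 976 to 1412 and 1434 CPM (1.46-fold, log2 SE 0.02, adjusted p = 2.2e-05 by edgeR). Atp5o, a subunit of the stalk, rose 1.47-fold. The 3 genes Atp5g1, Atp5g2 and Atp5g3 encode the same mature c subunit of the rotor. Atp5g3 was highest by fold, from 417 and 390 to 604 and 591 CPM (1.48-fold), and Atp5g1 rose 1.27-fold, from 163 and 163 to 209 and 204 CPM. Atp5g2, at 30.3 and 27.5 CPM in control MuSCs and 30.3 and 36.2 CPM in Lin28a+ libraries, overlapped between groups. Atp5j, a subunit of the peripheral stalk, did not pass the threshold either (log2 0.14, SE 0.05, adjusted p = 0.17 by edgeR).

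**Figure D2:**
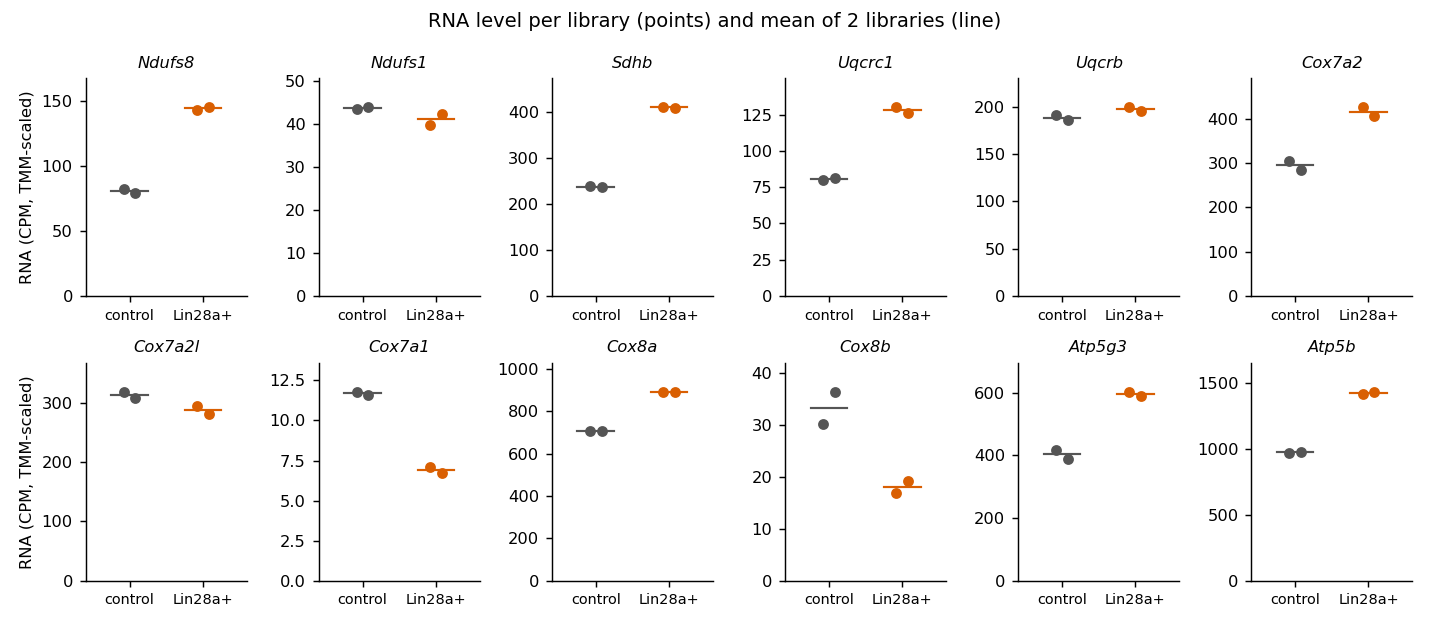
RNA level of 12 subunits in each input library (points, CPM after TMM scaling, axes from 0) and the mean of 2 libraries (line). Ndufs8, Sdhb, Uqcrc1, Cox7a2, Cox8a, Atp5g3 and Atp5b are higher in both Lin28a+ libraries, and Cox7a2l, Cox7a1 and Cox8b are lower.

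Complex IV, the cytochrome c oxidase, held all 3 members that fell, beside 9 that rose and 2 that did not pass the threshold. Its median was 1.18-fold. The 3 highest were Cox7a2 (306 and 284 to 426 and 405 CPM, 1.41-fold), Cox5b (202 and 197 to 278 and 282 CPM, 1.41-fold) and Cox4i1 (1.29-fold). The members that fell were Cox8b and Cox7a1, muscle-type isoforms, and Cox7a2l.

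The muscle-type isoform fell while its ubiquitous partner rose in the pairs Cox8b and Cox8a and Cox7a1 and Cox7a2. Cox8b (ENSMUSG00000025488) was at 30.2 and 36.4 CPM in control MuSCs and 16.9 and 19.2 CPM in Lin28a+ libraries, a drop to 0.539-fold (log2 -0.89, SE 0.12, adjusted p = 0.00151 by edgeR). Cox8a was at 708 and 705 CPM in control MuSCs and 893 and 892 CPM in Lin28a+ libraries, 1.26-fold higher. Cox7a1 (ENSMUSG00000074218) had 63 and 72 counts in control and 36 and 33 counts in Lin28a+ libraries, a drop to 0.593-fold (log2 -0.76, SE 0.08, adjusted p = 0.000969 by edgeR). The groups were apart in each of these genes, but with DESeq2 Cox8b alone passed the threshold among the members that fell. Cox6a2, the muscle-type partner of Cox6a1, overlapped between groups at 49.6 and 45.7 CPM in control MuSCs and 43.8 and 54.6 CPM in Lin28a+ libraries, while Cox6a1 rose 1.28-fold. Cox6b2 had too few counts to be tested, and Cox6b1 rose 1.14-fold. Cox7b did not pass the threshold (log2 0.03, SE 0.05, adjusted p = 0.611 by edgeR). Cox7a2l fell to 0.92-fold, from 319 and 307 to 294 and 281 CPM (adjusted p = 0.0279 by edgeR), and this call was lost with scaling to total counts and without control library 1 or Lin28a+ library 2. Of the structural genes of the contractile apparatus and other markers of differentiation, 15 of 22 fell in the same libraries, where 28.7% of all genes fell. Myog and Actc1 were among the 6 that rose. The part of these markers in the isoform result was not tested.

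The 13 mRNAs that mitochondrial DNA encodes for complexes I, III, IV and V went the other way from the nuclear subunits, with 12 lower, none higher and a median log2 change of -0.56. mt-Co1, the catalytic subunit of complex IV, was at 65771 and 65801 CPM in control MuSCs and 43853 and 44512 CPM in Lin28a+ libraries (log2 -0.57, SE 0.02). These mRNAs took 17.0% and 17.2% of the input counts in control and 12.1% and 12.3% in Lin28a+ libraries. With them left out of the table, 69 members were still higher, 3 lower, and the median was 0.41. Their reads may be shared with nuclear copies of mitochondrial DNA, and how multiply mapped reads were counted is not given in the sources used here.

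Other genes of the pathway were counted from fixed lists, to be read against the 28.1% of all genes that rose and the 28.7% that fell. Proteins of the mitochondrial ribosome, which translates the mitochondrially encoded subunits, rose in 69 of 78 genes and fell in 1, with a median log2 change of 0.42. Assembly factors of the complexes rose in 24 of 58 genes and fell in 6, among them Cox15 (log2 -0.35), an enzyme of haem a synthesis, and Sco1 (log2 -0.34), a copper chaperone of complex IV. Genes of electron carriers, quinone synthesis and entry of electrons rose in 7 of 20 tested and fell in 3. Cycs, which encodes cytochrome c, rose from 362 and 385 to 461 and 486 CPM. Of 17 regulators of mitochondrial genes 5 were higher and 5 lower (29.4% each), which is near the shares over all genes. Nrf1 (log2 0.61), Ppargc1a (log2 0.70) and Esrra (log2 0.35) rose, and Gabpa (log2 -0.69), Yy1 (log2 -0.18) and Tfb2m (log2 -0.76) fell. Nrf1 had 24 to 39 and Ppargc1a 15 to 25 counts per library.

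m6A-RIP rows were annotated to 56 of the 79 expressed members (70.9%), against 66.4% of expressed genes and 54.3% of all genes in the input table. The table gives counts per row with a transcript and no position. Summed per gene, 42 of the 56 members were higher in Lin28a+ MuSCs, 7 were lower and 7 did not pass the threshold, where 32.5% of all 9413 genes tested were higher and 33.8% lower. The median was 1.25-fold (log2 0.32), against a log2 median of 0.01 over all genes. In complex I, 18 of 21 members were higher and none was lower, whereas in complex IV 6 of 12 were higher and 5 lower. The groups did not overlap, with Lin28a+ higher, in 46 members (background 41.2%), and with Lin28a+ lower in 9 (background 41.4%).

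RNA and m6A-RIP come from different libraries. Of the 56 members 40 (71.4%) were higher in both, against 23.5% of the 7520 genes tested in both assays, and 2 (3.57%), Cox7a1 and Cox7a2l, were lower in both, against 25.7%. Opposite directions were called in 4 members (7.14%), against 1.97% of genes. Sdha, Cox6c and Cox7a2 were higher in RNA and lower in m6A-RIP, Cox8b was lower in RNA and higher in m6A-RIP, and 10 did not pass at least 1 of the tests. Across the 56 members, Pearson's r of the log2 changes was 0.38 and Spearman's rho 0.57, beside 0.82 and 0.83 over the 7520 genes, given as a description over genes that share their libraries.

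**Figure D3:**
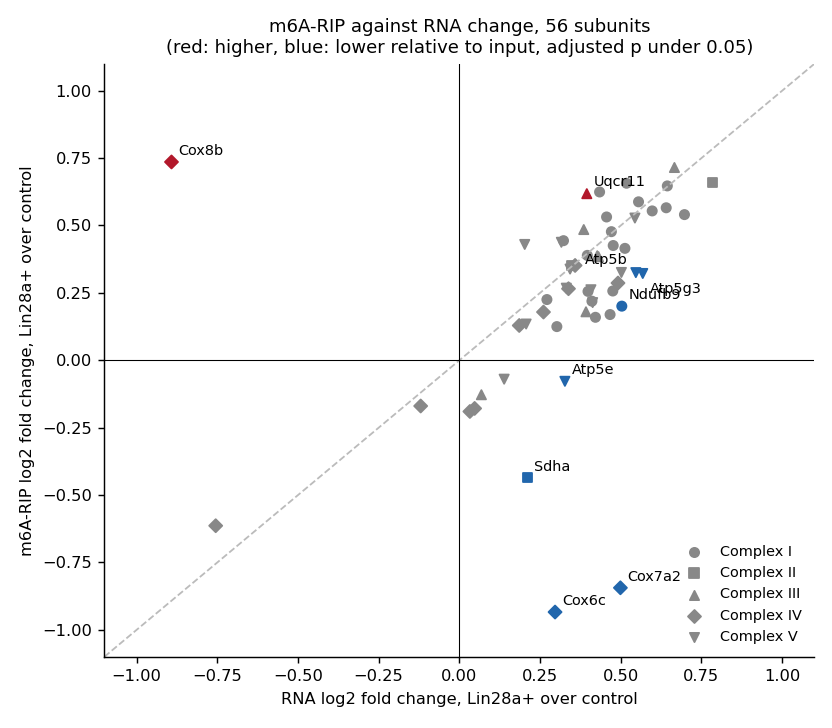
Log2 fold change in m6A-RIP (y axis) against that in RNA (x axis) for the 56 subunits with m6A-RIP rows, with the symbol shape giving the complex and the dashed line marking equal change. Named points passed the test of m6A-RIP relative to input; Cox8b lies far above the line and Cox7a2, Cox6c and Sdha far below it.

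The 5 highest in m6A-RIP were Cox8b (57.8 and 54.2 to 92.5 and 94.2 CPM, 1.67-fold), Uqcrc1 (18.7 and 17.7 to 28.4 and 31.4 CPM, 1.64-fold), Sdhb (22.5 and 24.5 to 34.9 and 39.0 CPM, 1.58-fold), Ndufs4 (333 and 199 counts in control and 351 and 449 in Lin28a+ libraries, 1.58-fold) and Ndufb8 (104 and 104 to 163 and 163 CPM, 1.57-fold). For each of them both Lin28a+ libraries lay above both control libraries. The members that fell were Cox6c (5.07 and 5.11 to 2.65 and 2.67 CPM), Cox7a2 (30.5 and 33.0 to 18.3 and 17.0 CPM), Cox7a1 (11.3 and 13.6 to 8.44 and 7.76 CPM) and Sdha (10.2 and 10.3 to 7.74 and 7.37 CPM), with smaller changes in Cox7b (log2 -0.19), Cox7a2l (log2 -0.17) and Uqcrb (log2 -0.13). Complex IV holds 5 of these 7 genes, out of its 12 tested members, where 33.8% of all genes tested were lower. None was in complex I or V.

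In a fit over both assays, which shares the libraries of the RNA and m6A-RIP comparisons, the change in m6A-RIP relative to input passed the threshold in 9 of 56 members, 2 higher and 7 lower, where 7.23% of 7520 genes did, 3.31% higher and 3.92% lower. The labels give polyA RNA for m6A-RIP and total RNA for input, in both groups. The study's methods instead take a part of the enriched mRNA as input for m6A-RIP, so the kind of input RNA is not certain. Cox8b was 3.10-fold higher relative to input (log2 SE 0.13, adjusted p = 2.67e-05 by edgeR) and Uqcr11, a small complex III subunit, 1.17-fold higher. Cox7a2 was at 0.396-fold (log2 SE 0.08, adjusted p = 4.40e-06 by edgeR), Cox6c at 0.428-fold (log2 SE 0.10, adjusted p = 2.70e-05 by edgeR) and Sdha at 0.641-fold (log2 SE 0.09, adjusted p = 0.001 by edgeR). Atp5e, Ndufb9, Atp5g3 and Atp5b were between 0.759-fold and 0.861-fold. Sdha in m6A-RIP alone lost its call when either control library or Lin28a+ library 2 was left out. Relative to input, Cox8b, Cox7a2, Cox6c and Sdha passed the threshold with TMM, with total counts and with each library left out.

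The rows of 1 gene did not always move together. The widest split was in Atp5l, a subunit of the membrane part of complex V, where the rows of ENSMUST00000213999.1 and ENSMUST00000216380.1 were higher (log2 0.54 each) and the row of ENSMUST00000043675.8, with 495 and 358 counts in control and 193 and 265 in Lin28a+ libraries, was lower (log2 -0.80, SE 0.13). Ndufb9 had 6 rows, of which 4 of transcript ENSMUST00000022980.4 were higher (log2 0.28 to 0.45), while the row of ENSMUST00000228787.1 with most counts had 4626 and 3340 counts in control and 3184 and 4045 in Lin28a+ libraries (log2 -0.04, SE 0.05). Both rows of Atp5e carry the same transcript, and 1 was higher (log2 0.34) and the other lower (log2 -0.18). Cox8b, Cox7a2, Cox6c and Sdha each had 1 row. Of 95 rows in all members 74 were higher and 7 lower, where 61.8% of all rows changed in either direction.

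Lin28a-RIP peaks were annotated to 9 of the 79 expressed members (11.4%), against 25.6% of expressed genes and 20.6% of all genes in the input table. There were 16 peaks for Ndufs1, 13 for Sdha, 6 for Cox6c and 4 for Cox7a2, and Atp5b, Atp5j, Atp5l and Cox8b each had 1. Against the RefSeq spans in GRCm38.p6, which is the assembly of mm10, 33 of these 44 peaks (75%) overlapped the gene they were annotated to, against 86.1% of all 21616 peaks, and each of the other 11 lay in another gene. With peaks counted only inside their own gene, 5 members remained, among them Ndufs1, Sdha, Cox7a2 and Atp5b (6.33% of members, against 22.3% of expressed genes). The peaks counted for Cox7a2 lie in its RefSeq span but also in Tmem30a, and upstream of the gene start used above, so without them 4 members remain. The strand of the peaks is not given. No control RIP was analysed here, so the levels are not compared with a background.

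Ndufs1 and Sdha carried peaks along the gene. The 16 peaks of Ndufs1 (chr1:63143592-63176822) were 205 to 457 bases wide, with 29516 and 26978 counts in the 2 libraries, and the 13 of Sdha (chr13:74322255-74350240) were 206 to 496 bases wide, with 27444 and 25269 counts. The median over genes with a Lin28a-RIP peak was 3 peaks, and 9.19% of them had at least 16. The lone peak of Atp5b (chr10:128089843-128090170) had 13126 and 11888 counts, or 359 and 351 CPM, higher than 98.8% of all peaks. Of the 16 peaks of Ndufs1, 8 also overlapped Ino80dos, a non-coding RNA gene.

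Igf2bp3-RIP peaks were annotated to 8 expressed members (10.1%), against 33.2% of expressed genes and 26.8% of all genes in the input table. They were Ndufb2 with 8 peaks, Ndufs1 with 5, Cox7a2 with 4, Ndufb9 with 3, Atp5j with 2 and Atp5b, Atp5l and Cox6c with 1 each. Of these 25 peaks 7 (28%) overlapped their own gene, against 80.6% of all 19465 peaks. Only Ndufs1 and Cox7a2 had such peaks (2.53% of members, against 28.6% of expressed genes), and those of Cox7a2 again lay in Tmem30a and upstream of that start. All 5 Igf2bp3-RIP peaks of Ndufs1 overlapped a Lin28a-RIP peak of Ndufs1, and all 4 of Cox7a2 overlapped a Lin28a-RIP peak annotated to Cox7a2.

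**Figure D4:**
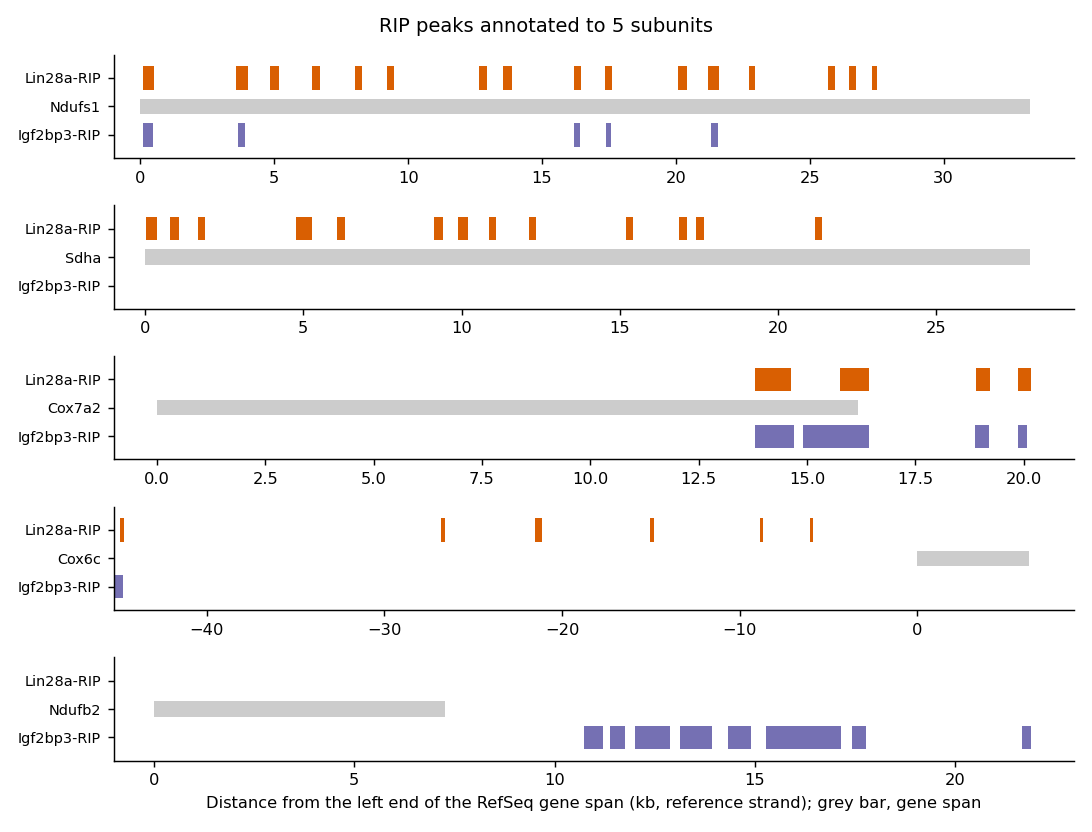
Position of Lin28a-RIP peaks (orange, above) and Igf2bp3-RIP peaks (purple, below) annotated to 5 subunits, as distance in kb from the left end of the RefSeq gene span (grey). Peaks of Ndufs1 and Sdha lie along the gene, 2 of 4 of Cox7a2 in each assay lie beyond its end, and those of Cox6c and Ndufb2 lie outside the gene.

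By edgeR without a replicate block, none of the 25 member peaks differed between Lin28a+ and control MuSCs in Igf2bp3-RIP. Of all peaks 0.123% did, 0.0616% higher and 0.0616% lower. The fit with a replicate block, which changed these counts, is given at the end. No member peak was under an unadjusted p of 0.05 by edgeR, where 5.22% of all peaks were. With DESeq2 no member peak passed, where 1.35% of all peaks did. The log2 changes ran from -0.53 to 0.64, with a median of 0.12 that turned to -0.0604 without Lin28a+ library 1. The 5 peaks of Ndufs1 were all lower by value (log2 -0.53 to -0.32) and the 8 peaks annotated to Ndufb2 all higher (log2 0.31 to 0.64), with SE up to 0.37. The common coefficient of variation between libraries was 27.9% in Igf2bp3-RIP, against 2.48% in input and 5.74% in m6A-RIP. Relative to input, summed per gene, none of the 8 members passed, where 1.36% of 3757 genes did (0.479% higher and 0.878% lower), and 4 were under an unadjusted p of 0.05 (background 24.9%), all at lower values, namely Cox7a2 (log2 -0.70, SE 0.18), Atp5l (log2 -0.69, SE 0.20), Cox6c (log2 -1.03, SE 0.31) and Ndufs1 (log2 -0.56, SE 0.23). The peaks of Atp5l, Cox6c and Atp5j lay outside these genes, in Ube4a, in Vps13b and in Jam2 and Gabpa, so their values set peaks in a neighbouring gene against the RNA of the subunit. The 4 peaks of Cox7a2 all lay in Tmem30a, and 2 of them also in the span of Cox7a2, so without strand their gene cannot be told. The median log2 change of the 8 members relative to input was -0.56 with all libraries. It was -0.57 without Lin28a+ Igf2bp3-RIP library 1 and -0.55 without library 2, against 0.02 and 0.06 over all genes. Which members passed depended on the library left out.

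Many of the peaks annotated to members lay in a neighbouring gene. All 6 Lin28a-RIP peaks of Cox6c lay 5853 to 44676 bases outside it, in Vps13b. The peak of Cox8b (chr7:140898001-140898200) lay 742 bases outside it, in Psmd13. The 4 peaks of Cox7a2 all overlapped Tmem30a, and 2 of them lay beyond the end of the RefSeq span of Cox7a2 (chr9:79755241-79771422). The Lin28a-RIP peaks of Atp5j and Atp5l lay in Gabpa and Ube4a. In Igf2bp3-RIP, the 8 peaks of Ndufb2 lay in Braf, the peak of Atp5b in Ptges3, and those of Ndufb9 in Mtss1 or in Rnf139 and Tatdn1.

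For Cox7a2, Cox6c and Cox8b, the gene under the Lin28a-RIP peaks changed in RNA in the direction that the m6A-RIP row of the subunit changed, and the subunit's own RNA changed in the other. These pairs were chosen after their values were seen. Tmem30a, a flippase subunit, had 473 and 536 counts in control and 243 and 234 in Lin28a+ input (log2 -0.87, SE 0.04), beside a log2 change of -0.84 (SE 0.09) for the m6A-RIP row of Cox7a2 and 0.50 for Cox7a2 RNA. Vps13b had 85 and 101 counts in control and 46 and 42 in Lin28a+ input (log2 -0.87, SE 0.07), beside -0.93 (SE 0.21) for the m6A-RIP row of Cox6c and 0.30 for Cox6c RNA. Psmd13, a proteasome subunit, had 257 and 296 counts in control and 401 and 374 in Lin28a+ input (log2 0.70, SE 0.04), beside 0.74 (SE 0.05) for the m6A-RIP row of Cox8b and -0.89 for Cox8b RNA. The rows annotated to the neighbours themselves had m6A-RIP changes of -0.44 (SE 0.15) for Tmem30a and -0.20 (SE 0.27, not past the threshold) for Vps13b, and Psmd13 had no row. The m6A-RIP table holds no positions, so which gene these rows lie in was not tested.

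**Figure D5:**
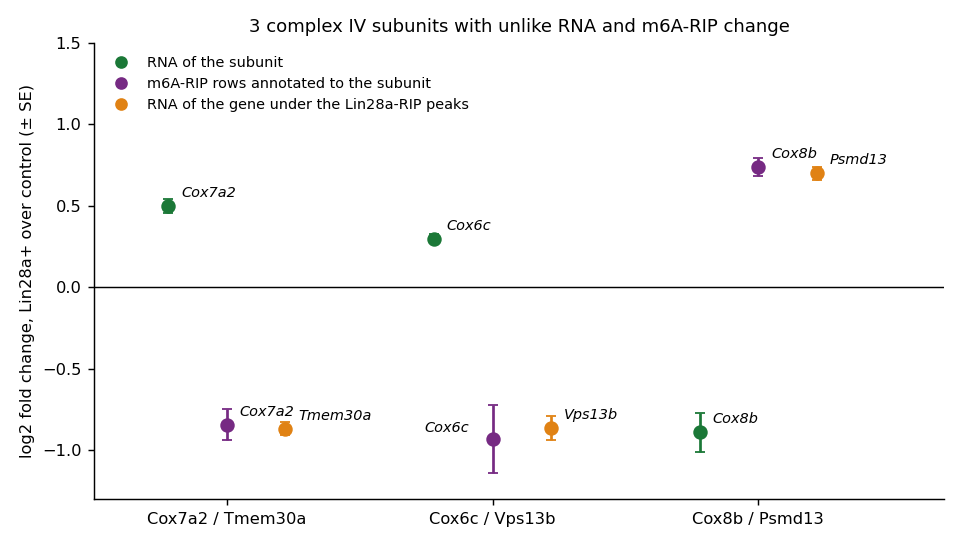
Log2 fold change with SE (y axis, Lin28a+ over control) for 3 complex IV subunits in RNA (green) and m6A-RIP (purple), beside the RNA of the gene under the Lin28a-RIP peaks annotated to that subunit (orange). In each trio the m6A-RIP value lies near the neighbour's RNA value and across 0 from the subunit's own RNA.

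Summed per gene, the other members with peaks in a neighbour did not show these calls. Atp5j did not pass the threshold in RNA (log2 0.14) or m6A-RIP (log2 -0.07), though its values had the signs of the Cox7a2 and Cox6c pairs, and Gabpa was lower in RNA (log2 -0.69). Its larger Igf2bp3-RIP peak lay in Jam2, which did not pass the threshold in RNA (log2 0.15). Ndufb9 was higher in RNA (log2 0.50) and m6A-RIP (log2 0.20), and Mtss1, Rnf139 and Tatdn1 did not pass the threshold in RNA (log2 0.03, -0.18 and -0.22). Atp5l was higher in RNA (log2 0.32) and, summed, in m6A-RIP (log2 0.44), and Ube4a was lower in RNA (log2 -0.45) and in its own m6A-RIP row (log2 -0.70). The row of Atp5l that was lower (log2 -0.80) thus had the same directions beside Ube4a as Cox7a2 and Cox6c had beside their neighbours, while its other 2 rows did not. Atp5b was higher in both (log2 0.55 and 0.33), and Ptges3 did not pass the threshold (log2 -0.04). Ndufb2 was higher in both (log2 0.43 and 0.62), and Braf was lower in RNA (log2 -0.80). Sdha, whose 13 Lin28a-RIP peaks all lay in its own gene and in no other, was higher in RNA (log2 0.21) and lower in m6A-RIP (log2 -0.44).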

How the data were processed

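Mouse MuSCs were profiled in 14 libraries. Input values are estimated counts of genes, as the authors deposited them, not scaled between libraries and mostly with decimals. Whole numbers in all 4 libraries were found in 5.98% of genes. Levels were therefore not compared between subunits, and sums over genes, with the part of single markers in them, carry this limit. The 3 RIP tables hold counts of reads in each row or peak, deposited as whole numbers. The submitters' processing notes name FastQC, HISAT2 2.0.4, MACS2 1.4.3 and DESeq2 1.42.0, with GRCh38 and mm10. The methods name GRCh38, a human assembly, but 86.1% of Lin28a-RIP and 80.6% of Igf2bp3-RIP peaks overlapped their gene in GRCm38.p6, so positions were read as mm10. The read counter, multi-mapping rule and peak threshold are not given in the sources used here. The input columns of Lin28a+ MuSCs bear the name of the m6A-RIP libraries. Over 8063 genes their log2 CPM correlated with the control input at r = 0.949 and with Lin28a+ m6A-RIP at r = 0.517 to 0.518.

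Input values were rounded, filtered with filterByExpr, scaled with TMM and tested with edgeR 4.0.16 (R 4.3.3) by the quasi-likelihood test with Benjamini-Hochberg adjustment over all features, at 0.05. SE is the log2 change divided by the root of F. Change relative to input was the interaction of group and assay. Levels are TMM-scaled CPM of all counts, except Lin28a-RIP, scaled to its total. A peak counted as in a gene where they shared 1 base. The members and lists were chosen with earlier results of these data known. Genes were named by rank in each complex (the 3 highest and 2 lowest), by falling past the threshold, as isoform sets, or by a RIP peak. One member enters the counts but is not reported here by name. Fits were tested on simulated data. Alternatives were DESeq2, other scalings and filters, each library left out, and a replicate block.

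The labels give the libraries as separate samples without naming separate cultures or animals, so p-values measure only the spread between these libraries. The study's statistics section states more replicates than the 2 libraries per group used here. Among genes with whole-number input values and a mean count of 20 to 2000, chi-square per degree of freedom within a pair, 1 for counting noise alone, was 1.65 in control and 1.79 in Lin28a+ MuSCs. Over all input genes it was 4.38 and 1.00, a measure not calibrated for values with decimals, and each pair was counted as 2 samples. Intervals beyond SE were not computed.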

Additional observations from a re-analysis of the deposited data

How the results depend on the processing

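The counts of members higher in RNA (56 to 70), lower in m6A-RIP (5 to 9) and with an m6A-RIP row (55 or 56) stayed within 1.5 times the values given above under every alternative run. With DESeq2, 1 member fell in RNA in place of 3. Scaling to total counts gave a median m6A-RIP change of 0.22 (34 higher, 9 lower), and the median of all genes moved to -0.09. With single rows in place of sums per gene, 74 of 95 rows were higher in m6A-RIP. With peaks counted only in their own gene, an alternative added after seeing the data, 5 members had a Lin28a-RIP and 2 an Igf2bp3-RIP peak. Leaving out each library in turn gave 1 to 2 members higher in m6A-RIP relative to input (Uqcr11 was lost), a median of -0.0604 (without Lin28a+ replicate 1) to 0.16 over the Igf2bp3-RIP peaks, and 0 to 4 members lower in Igf2bp3-RIP relative to input. Where this left 1 library in a group, it was assumed to vary like the other group. For single members, 21 of 790 RNA, 25 of 504 m6A-RIP and 10 of 504 values relative to input lost the threshold, and none turned its direction past it.

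For Igf2bp3-RIP, the labels number the replicates, and the difference between replicates 1 and 2 correlated between groups over peaks (r = 0.70, 2 pairs), which does not show that the numbers pair the samples. With a replicate block, 2 of 25 member peaks (8%) were called higher, 1 annotated to Atp5b that lies in Ptges3 and 1 to Ndufb2 that lies in Braf, where the count over all peaks rose from 24 to 1988 (10.2%). No paired analysis was possible for input and m6A-RIP because the headers of the Lin28a+ columns do not show which replicate they hold: the input columns bear m6A-RIP names, and both m6A-RIP columns bear the same number. Member peaks had 39 to 21646 counts per Igf2bp3-RIP library, and both these counts and the spread between libraries limit what can be seen.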
